A study of Mus musculus with 24 samples.

Results

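The genes examined here encode the molecules with which CD8 T cells kill and signal: the granzymes Gzma, Gzmb, Gzmk and Gzmm, the pore-former Prf1, the granule membrane protein Nkg7, the cytokines Ifng and Tnf, the death ligand Fasl and the chemokine Ccl5. They were taken by symbol, and all 10 of them were found among the 24421 genes counted. The RNA came in bulk from CD45+CD3+CD8+ T cells that had been sorted out of pancreas or blood, taken from KC mice or from wild-type (WT) B6 mice. KC mice develop preinvasive pancreatic lesions and serve as a cancer model; the labels name no alleles or promoter for the strain. KC pancreas gave 12 libraries, 3 from mice of 4 weeks, 2 of 9, 3 of 13, 2 of 20 and 2 of 30 weeks. WT pancreas gave 2 libraries, 1 of 9 weeks and 1 of 30 weeks. KC blood gave 9 libraries, 2 from mice of 4 weeks, 1 of 9, 3 of 13, 1 of 20 and 2 of 30 weeks, and WT blood gave 1 library of 30 weeks. No treatment is named, and the labels do not say whether a library is 1 mouse or a pool, so p-values measure the spread between these libraries. A library is called by its title, where P8 stands for pancreas and B8 for blood.

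Cytotoxic T cells store perforin and granzymes in granules and release them toward a target cell. Perforin opens the target's membrane, and granzymes are serine proteases that enter through it; granzyme B cleaves caspases and other substrates that lead to apoptosis. Fas ligand kills by a separate route, through the death receptor Fas, while interferon gamma and tumour necrosis factor act on many cell types and CCL5 attracts leukocytes. Resting naive CD8 T cells hold little of these transcripts, and effector and memory cells hold more.

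Reads counted in genes ran from 6352070 to 16716169 per library. The sorted identity was visible in every library: Cd3e ran from 3791 to 15654 CPM (counts scaled to each library's total of reads in genes), Cd8a from 587 to 3003 and Cd8b1 from 282 to 1776, against 13.3 to 39.4 for Cd4. Of 7 natural killer cell markers, Klra4 and Klra8 had 0 counts in all libraries, and the summed level of the list was 0.721 to 52.8 CPM (median 13.7) in KC pancreas and 0.636 to 99.2 CPM (median 35.8) in KC blood. Its part in the levels below was not tested. The summed level of 10 immediate early and dissociation genes was 408 to 2736 CPM (median 800.3) in KC pancreas and 69.9 to 265 CPM (median 122) in KC blood. In bulk samples, fewer cells of a type and less RNA per cell cannot be told apart. The libraries were also split into 2 sets of 12 by shared traces of genes abundant in a single library (94 genes, none a member). The number of sets was fixed at 2 beforehand. Such genes were detected in 92.6% of the other libraries of the same set and in 48.1% of libraries of the other set. The same genes made the sets, so this gap describes the sets and does not test them. Set 1 held the KC pancreas libraries of 4 and 13 weeks, 3 KC blood libraries and the WT libraries, and set 2 held the KC pancreas libraries of 9, 20 and 30 weeks and 6 KC blood libraries. Each age of KC pancreas thus lies in 1 set. In KC blood both 4-week libraries are in set 1 and all libraries of 9, 20 and 30 weeks in set 2. Some slopes are therefore also given with the set as a term, and the others in the closing section where it reversed them. Rn45s, a ribosomal RNA gene, took 17.0% and 18.2% of reads in genes in WT pancreas and 16.7% in WT blood, against 2.63% to 12.1% in KC pancreas and 1.86% to 11.3% in KC blood.

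The 4 granzymes come from 3 loci. Gzma (chr13:113093825-113100981, minus strand) and Gzmk (chr13:113171608-113225908, minus strand) lie 70626 bases apart on chromosome 13, with 3 annotated genes and 0 protein-coding genes between them. Gzmb is at chr14:56258838-56262260 (minus strand), Gzmm at chr10:79689020-79695261 (plus strand), and Prf1, Nkg7 and Ifng at chr10:61297833-61304680, chr7:43437073-43438249 and chr10:118441046-118445892, all on the plus strand. Tnf is at chr17:35199381-35202007, Fasl at chr1:161780689-161788495 and Ccl5 at chr11:83525778-83530518, all on the minus strand. These positions are those of GENCODE M21 on mm10, where all 10 genes are protein coding; the annotation behind the counts is not given in the sources used here. The exons of Ifng share 336 bases with Gm49751 on the same strand, and Esm1 lies across the gene body of Gzmk with 0 shared exonic bases. The 250 bases before the RefSeq start (GRCm38.p6) follow for the neighbours Gzma and Gzmk, which were high in different libraries, for Gzmb, the granzyme with the most counts, and for Nkg7, which was detected at over 10 CPM in all libraries. Capitals mark matches, on either strand, to GGTGTG (T-box core), TGANTCA (AP-1) or TGTGGT (Runx), and no matches overlap.
Gzma: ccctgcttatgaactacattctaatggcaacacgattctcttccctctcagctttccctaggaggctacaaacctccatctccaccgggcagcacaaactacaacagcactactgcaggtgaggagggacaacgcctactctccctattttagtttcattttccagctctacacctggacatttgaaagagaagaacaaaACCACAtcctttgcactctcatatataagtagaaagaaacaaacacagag
Gzmk: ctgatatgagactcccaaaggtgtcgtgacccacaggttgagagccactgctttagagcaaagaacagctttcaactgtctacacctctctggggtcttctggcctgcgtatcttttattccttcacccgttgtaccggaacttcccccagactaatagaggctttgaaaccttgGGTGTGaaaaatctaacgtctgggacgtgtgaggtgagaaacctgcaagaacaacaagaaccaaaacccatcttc
Gzmb: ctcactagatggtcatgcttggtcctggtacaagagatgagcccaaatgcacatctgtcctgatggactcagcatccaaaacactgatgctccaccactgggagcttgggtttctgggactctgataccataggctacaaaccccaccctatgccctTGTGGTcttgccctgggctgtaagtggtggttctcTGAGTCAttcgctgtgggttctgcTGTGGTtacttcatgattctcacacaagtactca
Nkg7: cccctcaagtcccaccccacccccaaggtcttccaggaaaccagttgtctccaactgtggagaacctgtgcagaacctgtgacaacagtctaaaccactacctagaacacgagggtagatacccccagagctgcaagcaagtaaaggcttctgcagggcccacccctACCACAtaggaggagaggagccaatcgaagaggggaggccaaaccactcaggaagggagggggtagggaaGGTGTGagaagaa
These windows are chr13:113100982-113101231 for Gzma, chr13:113180966-113181215 for Gzmk, chr14:56262335-56262584 for Gzmb and chr7:43436888-43437137 for Nkg7, each read 5′ to 3′ on the strand of its gene. By the GENCODE positions above, the Gzmk window lies inside its gene, and the Nkg7 window runs past the first base of its gene. The windows are thus upstream of the RefSeq start only. The Gzma window holds a Runx match 50 bases before the RefSeq start, and the Gzmk window a T-box match 75 bases before its own. The Gzmb window holds an AP-1 match and 2 Runx matches, and the Nkg7 window a T-box and a Runx match. Among 32851 such windows, 16.3% hold the T-box letters, 6.75% the AP-1 letters and 14.05% the Runx letters. A match describes letters and not binding.

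Per kilobase of exon, Nkg7 and Ccl5 stood above the other members. Over the 24 libraries the median level was 200.2 CPM per kilobase for Nkg7 and 102.4 for Ccl5, then 16.7 for Gzmb, 8.80 for Gzma, 2.84 for Prf1, 0.821 for Fasl, 0.318 for Tnf, 0.199 for Gzmm, 0.134 for Ifng and 0 for Gzmk. Neighbours in this order overlapped across libraries, and the range of Gzmb, 0.5001 to 419 CPM per kilobase, took in the medians of all members from Nkg7 to Fasl. Nkg7 and Ccl5 reached 10 CPM in all 24 libraries, Gzmb in 13, Gzma and Prf1 in 11 each, Fasl in 6, Gzmm and Tnf in 3 each, and Gzmk and Ifng in 1 each. A single library carried 95.1% of the summed CPM of Gzmk and 82.9% of that of Ifng, against 16.1% for Prf1 and 21.4% for Nkg7. The summed level of the 10 genes ran from 82.2 to 1036 CPM (median 397) in KC pancreas and from 160.2 to 2057 CPM (median 368) in KC blood. Among the counts of the 10 genes, Ifng took 34.5% in Sample_303P8, Gzmk 24.7% in Sample_132P8, Gzmm 23.4% in Sample_204P8 and Gzma 24.3% in Sample_205P8, and Gzmb took 41.4% in Sample_131P8 and 52.1% in Sample_205B8. The gene that stood out among the granzymes and cytokines thus differed from library to library.

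**Figure D1:**
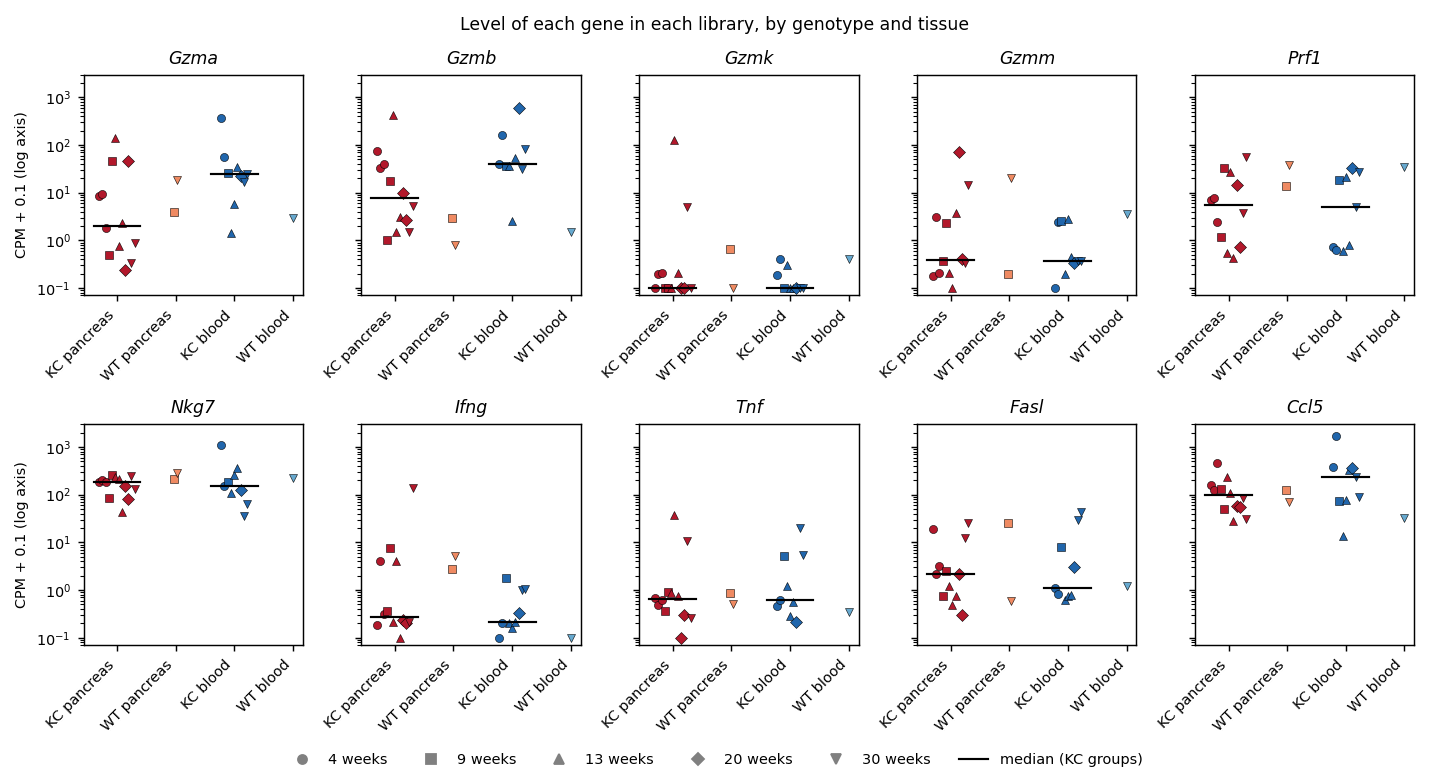
Level of each gene in each library, as CPM + 0.1 on a log axis, for KC pancreas, WT pancreas, KC blood and WT blood; marker shape gives the age and the black line the median of a KC group. Nkg7 and Ccl5 lie above 10 CPM in all libraries, while Gzma and Gzmb run from about 1 CPM or below to over 100 CPM in KC pancreas.

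Gzma encodes granzyme A, a tryptase of the granules. In KC pancreas it ran from 0.136 to 139 CPM with a median of 1.93, and in KC blood from 1.32 to 377 CPM with a median of 25.05. KC pancreas libraries of 4 weeks had 1.69, 8.39 and 9.32 CPM, those of 9 weeks 0.394 and 46.6, those of 13 weeks 0.646, 2.17 and 139, those of 20 weeks 0.136 and 45.6, and those of 30 weeks 0.236 and 0.787. Libraries of the same age lay far apart at 9, 13 and 20 weeks. KC blood libraries had 54.9 and 377 CPM at 4 weeks, 25.9 at 9 weeks, 1.32, 5.66 and 34.3 at 13 weeks, 22.5 at 20 weeks and 16.8 and 25.05 at 30 weeks. 5 of 12 KC pancreas libraries lay below all KC blood libraries, and the groups overlapped. The log2 fold change of KC pancreas over KC blood was -1.90 ± 1.54 (SE) with an adjusted p of 0.743. It was -3.44 without Sample_131P8 and -1.02 without Sample_42B8.

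Gzmb encodes granzyme B. KC pancreas libraries ran from 0.920 to 429 CPM with a median of 7.49, and KC blood libraries from 2.50 to 602 CPM with a median of 39.5. In KC pancreas the 4-week libraries held 32.5, 39.3 and 73.3 CPM, the 9-week ones 0.920 and 17.2, the 13-week ones 1.42, 2.93 and 429, the 20-week ones 2.57 and 9.94 and the 30-week ones 1.41 and 5.04. KC blood held 39.5 and 158 CPM at 4 weeks, 36.1 at 9 weeks, 2.50, 35.7 and 53.4 at 13 weeks, 602 at 20 weeks and 30.7 and 81.5 at 30 weeks. All KC blood libraries but Sample_132B8 lay above 30 CPM, and 8 of 12 KC pancreas libraries lay below that level. The log2 fold change of KC pancreas over KC blood was -1.81 ± 1.03, with a 95% interval of -3.87 to 0.25 and an adjusted p of 0.586. In set 2 alone the value was -4.08 ± 1.08 and in set 1 alone -0.73 ± 1.53, with adjusted p of 0.467 and 0.843.

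Gzmk encodes granzyme K, another tryptase, and was seen at a high level in 1 library. Sample_132P8, a KC pancreas library of 13 weeks, held 986 counts (127 CPM), and Sample_302P8, of 30 weeks, held 41 counts (4.83 CPM). The remaining libraries held 6 counts or fewer, and 14 of the 24 held 0, a limit of 0.183 to 0.472 CPM per library at 3 counts. Of the 11 other libraries of set 1, to which Sample_132P8 belongs, 8 held 1 to 6 counts, and 1 of the 12 of set 2, Sample_302P8, held any. Gzmk was too low for the main tests between tissues and over age. In 10 alternatives that kept it, the log2 fold change of KC pancreas over KC blood ran from 1.54 to 6.26, with 0 called. Its slope in KC pancreas was -1.07 and 5.45 log2 per 10 weeks in 2 alternatives, with 0 called. In Sample_132P8 its neighbour Gzma had 5 counts, and in Sample_131P8, the KC pancreas library with the most Gzma (1257 counts), Gzmk had 0.

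Gzmm encodes granzyme M. Its levels ran from 0 to 71.1 CPM with a median of 0.286 in KC pancreas and from 0 to 2.74 CPM with a median of 0.278 in KC blood. The KC pancreas libraries above 10 CPM were Sample_204P8 of 20 weeks with 71.1 CPM (522 counts) and Sample_303P8 of 30 weeks with 14.3 CPM (91 counts). Their partners of the same age held 0.309 and 0.236 CPM. The log2 fold change of KC pancreas over KC blood was 1.40 ± 1.36 with an adjusted p of 0.802. It was 0.31 without Sample_133P8 and 2.75 without Sample_43B8.

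**Figure D2:**
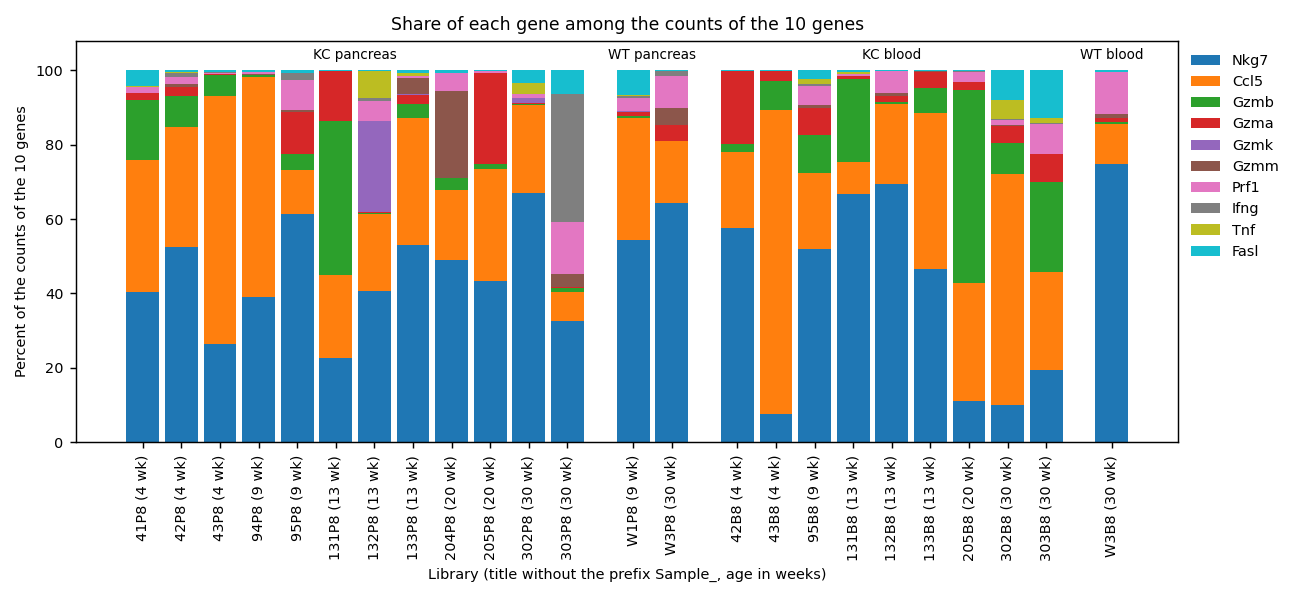
Share of each gene, in percent, among the counts of the 10 genes in each library, with libraries ordered by group and age. Nkg7 and Ccl5 take most of the counts in most libraries, while Gzmb, Gzma, Gzmk, Gzmm or Ifng takes over 20% in single libraries.

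Prf1 encodes perforin and spread over more than 1 order of magnitude in each tissue. KC pancreas ran from 0.326 to 55.9 CPM with a median of 5.33, and KC blood from 0.509 to 33.3 CPM with a median of 5.03. In KC pancreas the 4-week libraries held 2.32, 7.005 and 7.65 CPM, the 9-week ones 1.05 and 33.1, the 13-week ones 0.326, 0.442 and 27.7, the 20-week ones 0.618 and 14.3 and the 30-week ones 3.65 and 55.9. KC blood held 0.514 and 0.636 CPM at 4 weeks, 18.3 at 9 weeks, 0.509, 0.695 and 21.7 at 13 weeks, 33.3 at 20 weeks and 5.03 and 26.9 at 30 weeks. High and low libraries occurred in both tissues, and the log2 fold change was 1.11 ± 1.07 (adjusted p = 0.801).

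Nkg7 encodes a membrane protein of cytotoxic granules and had the narrowest relative spread of the members over all 24 libraries, though in KC blood its coefficient of variation, 123%, was above that of Gzmm (119%) and Prf1 (109.8%). KC pancreas ran from 43.6 to 253 CPM with a median of 182, and KC blood from 36.3 to 1094 CPM with a median of 155. Its mean was 167 ± 68.8 CPM in KC pancreas (SD, n = 12) and 266 ± 326 CPM in KC blood (SD, n = 9). Without Sample_42B8 the mean of KC blood was 162 CPM. The tissues overlapped, with a log2 fold change of -0.08 ± 0.56, a 95% interval of -1.20 to 1.04 and an adjusted p of 0.986. The value turned positive (0.05) with RLE scaling (the size factors of DESeq2) or DESeq2, was -1.69 in set 1 alone and was 1.12 in set 2 alone.

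Ccl5 encodes a chemokine that memory CD8 T cells are known to hold as ready transcript. It ran from 28.1 to 463 CPM with a median of 96.5 in KC pancreas, and from 13.8 to 1684 CPM with a median of 230.0 in KC blood. KC pancreas held 127, 158 and 463 CPM at 4 weeks, 49.8 and 131.6 at 9 weeks, 28.1, 107 and 231 at 13 weeks, 56.4 and 56.8 at 20 weeks and 31.0 and 85.7 at 30 weeks. KC blood held 389 and 1684 CPM at 4 weeks, 73.1 at 9 weeks, 13.8, 78.0 and 332 at 13 weeks, 367 at 20 weeks and 89.2 and 230.0 at 30 weeks. The 4-week libraries were the highest of KC blood in this gene. The log2 fold change of KC pancreas over KC blood was -0.89 ± 0.56 (adjusted p = 0.638).

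Ifng, the gene of interferon gamma, was below 10 CPM in 23 of 24 libraries. Sample_303P8, a KC pancreas library of 30 weeks, held 883 counts (139 CPM), and the other KC pancreas library of that age held 1 count (0.118 CPM). The KC pancreas libraries next in order were Sample_95P8 with 7.59 CPM, Sample_42P8 with 4.02 and Sample_132P8 with 4.01. KC blood ran from 0 to 1.70 CPM with a median of 0.116, against a median of 0.173 in KC pancreas. 4 of 12 KC pancreas libraries lay above all KC blood libraries and the rest within their range. The log2 fold change was 3.60 ± 1.38 with a 95% interval of 0.84 to 6.37, and the adjusted p was 0.322 with edgeR and 0.0150 with DESeq2. The mean of KC pancreas was 13.0 CPM with Sample_303P8 and 1.51 CPM without it, against 0.469 CPM in KC blood.

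Tnf and Fasl were low in most libraries and high in a few. Tnf, the gene of tumour necrosis factor, ran from 0 to 37.6 CPM (median 0.548) in KC pancreas, with Sample_132P8 (37.6) and Sample_302P8 (10.7) above the remaining libraries, and from 0.119 to 19.5 CPM (median 0.514) in KC blood, with Sample_302B8 (19.5) highest. Its log2 fold change was 0.39 ± 1.33 (adjusted p = 0.964). Fasl ran from 0.206 to 25.7 CPM with a median of 2.05 in KC pancreas and from 0.509 to 42.7 CPM with a median of 1.0 in KC blood. Its log2 fold change was 0.11 ± 1.01 (adjusted p = 0.988). The 4 KC libraries of 30 weeks had 12.5 and 25.7 CPM of Fasl in pancreas and 29.0 and 42.7 CPM in blood, and Sample_41P8 of 4 weeks was the remaining KC library above 10 CPM. Sample_303B8, with the most Fasl, also had the highest summed level of the natural killer cell markers, 99.2 CPM, whose part was not tested. The genes of that list with the highest means in KC blood were Fcer1g, Klrb1c and Tyrobp. Sample_132P8, with the most Tnf and Gzmk, had the highest summed neutrophil markers (44.1 CPM) and mast cell markers (17.6 CPM) of all libraries. Summed monocyte and macrophage markers had a median of 44.7 CPM in KC pancreas, highest in Sample_302P8 (187 CPM). In KC blood their median was 3.29 CPM, and Sample_95B8 was highest (342 CPM). The part of these lists in the values of Tnf and Gzmk was not tested.

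Between the tissues, 9 of the 10 genes could be tested and 0 were called by edgeR's quasi-likelihood test at a Benjamini-Hochberg adjusted p under 0.05. Over all 11059 genes tested, 10 were called (percent called 0.0904). Without adjustment 1 of the 9, Ifng, had a p under 0.05, against 9.85% of all genes tested. DESeq2 called Ifng alone among them and 4.33% of all genes, and edgeR without a filter on low counts called 0 members and 0.223% of all genes. For Gzma, Prf1 and Tnf DESeq2 gave no adjusted p, so they could not be called by it. Of the 10 immediate early and dissociation genes, 5 were called higher in KC pancreas. The 2 genes called lower there were a platelet marker, Ppbp, and an erythroid marker, Alas2; the summed platelet list was 1.89 to 94.2 CPM in KC pancreas and 39.4 to 291 CPM in KC blood, and the erythroid list 1.34 to 9.52 CPM in KC pancreas and 7.15 to 114 CPM in KC blood. The part of these lists in the values of the members was not tested. The median log2 fold change was 0.11 over the 9 genes, 5 of them positive, and -0.12 over all genes. For none of the 10 genes did the libraries of the tissues separate without overlap, and 0.0271% of all genes did. In 9 pairs of a pancreas and a blood library with the same title number and age, which are not stated to be 1 mouse, pancreas was the higher in 1 pair for Gzmb, 2 for Ccl5, 3 each for Gzma and Fasl, 4 for Gzmk (with 3 equal), 5 each for Gzmm, Prf1, Nkg7 and Tnf, and 6 for Ifng. Of all genes tested, 3.73% were higher in blood in at least 8 pairs and 13.9% in at least 7.

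**Figure D3:**
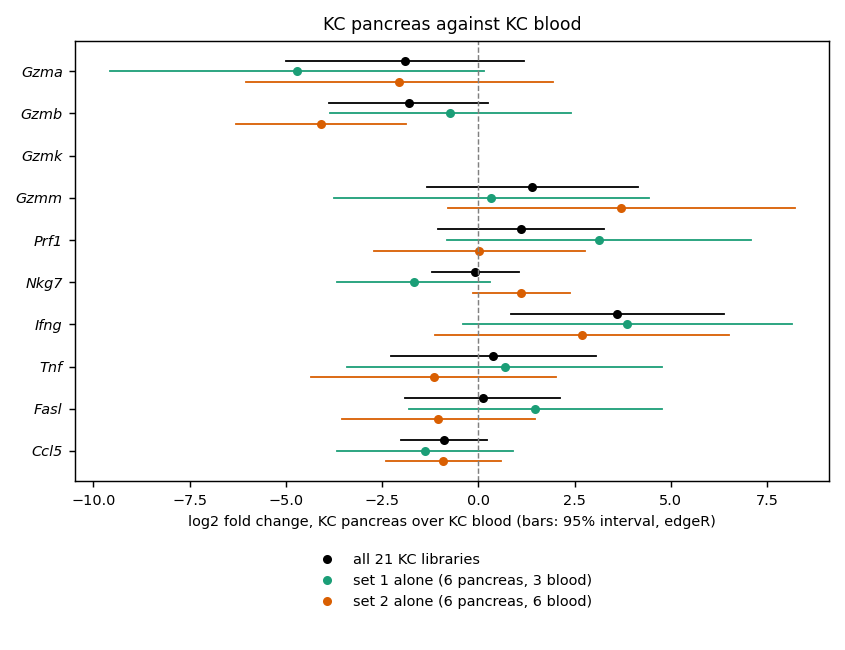
Log2 fold change of KC pancreas over KC blood for each gene with its 95% interval from edgeR, for all 21 KC libraries and for each set of libraries alone; Gzmk was not tested. The intervals are several log2 units wide, and those of Nkg7 and Ccl5 in all libraries are the narrowest.

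Libraries of KC mice of different ages, 4 to 30 weeks, were compared, and slopes are given in log2 per 10 weeks. In KC pancreas 0 of 8 genes tested were called by edgeR, against 28 of 9555 genes (percent called 0.293). Ifng had the smallest p among them, with a slope of 2.05 ± 0.74 (unadjusted p = 0.0108, adjusted p = 0.325). That slope turned to -1.55 without Sample_303P8. The slope of Gzmm was 2.47 ± 1.199 (adjusted p = 0.558 with edgeR and 0.0291 with DESeq2), and it was 1.09 without Sample_204P8 and 3.70 without Sample_42P8. Nkg7 showed a slope of 0.00 ± 0.34 with a 95% interval of -0.70 to 0.70. Gzmb had a slope of -1.78 ± 1.36, which became 0.19 with the set as a term. Without adjustment 1 of 8 had a p under 0.05, against 8.95% of all genes, and DESeq2 called 1 of 8 and 4.42% of all genes. For Gzma, Gzmb and Prf1 DESeq2 gave no adjusted p, so they could not be called by it. Without the filter edgeR called 0 members and 4.76% of all genes. Of 6 acinar markers 3 were called lower with age in KC pancreas, as were 2 of 3 fibroblast markers tested, and their part in these slopes was not tested.

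In KC blood edgeR called 0 of 8 genes tested and 0 of 9933 genes (percent called 0.0). Without adjustment 4 of 8 had a p under 0.05, against 8.76% of all genes; DESeq2 called 1 of 8 and 3.17% of all genes, and edgeR without a filter 0.705% of all genes. With the set as a term 1 of the 8 members, Nkg7, had an unadjusted p under 0.05, and without Sample_42B8 2 did. Such p-values also became fewer over all genes, so the 8.76% is not the background of these member counts. In the main fit 870 of 9933 genes had one, and without Sample_42B8 527 of 9796 did. With the set as a term fewer genes still had one. Nkg7 held 155 and 1094 CPM at 4 weeks, 184 at 9 weeks, 107, 255 and 368 at 13 weeks, 127 at 20 weeks and 36.3 and 65.0 at 30 weeks. The 30-week libraries were the lowest of the group. Its slope was -1.72 ± 0.43 (adjusted p = 0.175), and it was called by DESeq2 (-1.90, adjusted p = 0.0105) and by edgeR without a filter on low counts (-1.73, adjusted p = 0.0275). The slope was -1.15 to -1.94 when single libraries were left out. With the set as a term it was -1.43 ± 0.52 (adjusted p = 1). Gzma had a slope of -1.55 ± 0.55 (adjusted p = 0.458), which was -0.41 with the set, and Ccl5 of -1.17 ± 0.45 (adjusted p = 0.495), which was -0.42 with the set. Fasl had a slope of 1.57 ± 0.64 (adjusted p = 0.511), with 0.720 and 1.0 CPM at 4 weeks, 7.98 at 9 weeks, 0.509, 0.670 and 0.695 at 13 weeks, 2.96 at 20 weeks and 29.0 and 42.7 at 30 weeks.

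**Figure D4:**
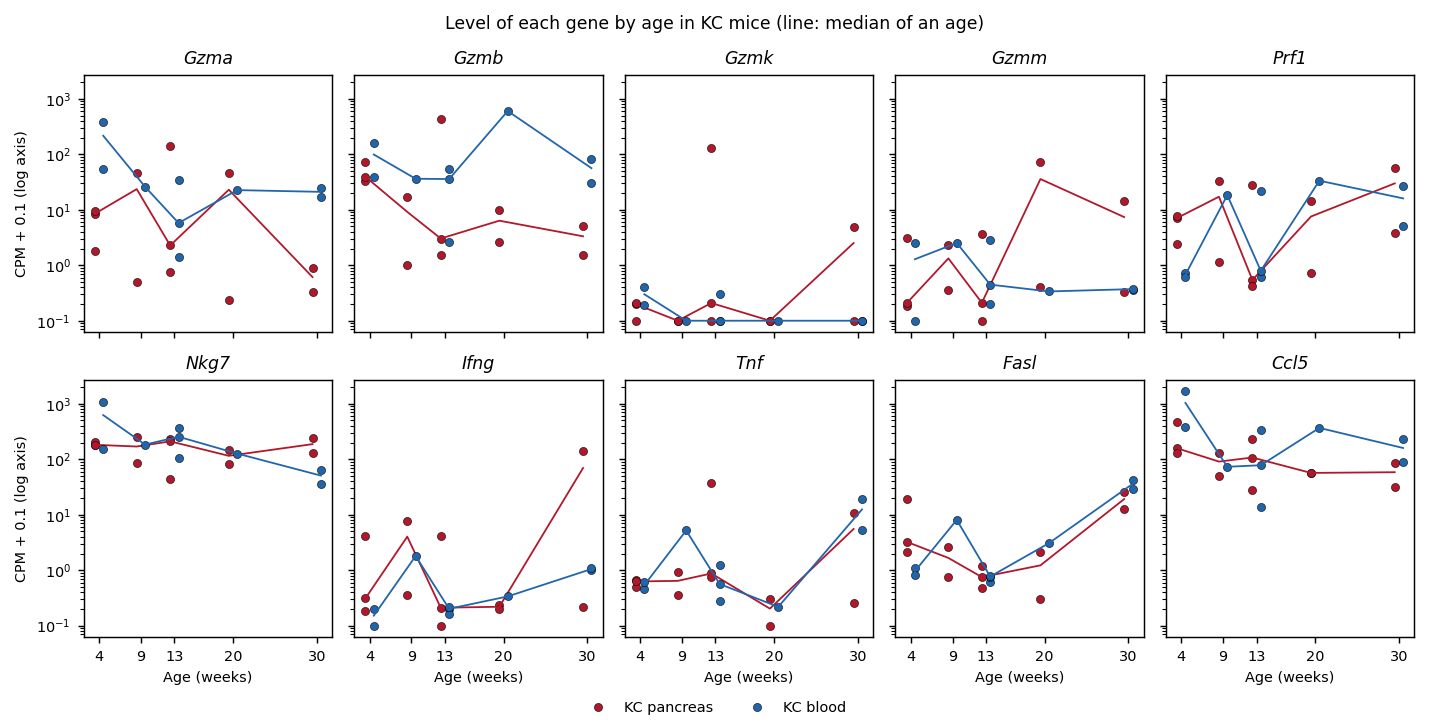
Level of each gene by age in KC pancreas and KC blood, as CPM + 0.1 on a log axis; points are libraries and lines join the medians of an age. Both Fasl libraries of 30 weeks lie above 10 CPM in each tissue, and Nkg7 in blood is lowest at 30 weeks.

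The difference of the slopes, pancreas minus blood, was called by edgeR in 0 of 9 genes and in 6 of 11059 genes (percent called 0.0543). Nkg7 had the smallest p of the 9, with a difference of 1.74 ± 0.50 (adjusted p = 0.218), which was 1.15 to 1.98 when single libraries were left out. For Gzmm the difference was 3.69 ± 1.53 (adjusted p = 0.473 with edgeR and 0.0342 with DESeq2). These 2 genes were the ones with an unadjusted p under 0.05, against 8.33% of all genes. DESeq2 called 1 of 9 and 2.15% of all genes, and edgeR without a filter 0 members and 0.0525% of all genes. For Gzma, Prf1 and Tnf DESeq2 gave no adjusted p, so they could not be called by it.

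**Figure D5:**
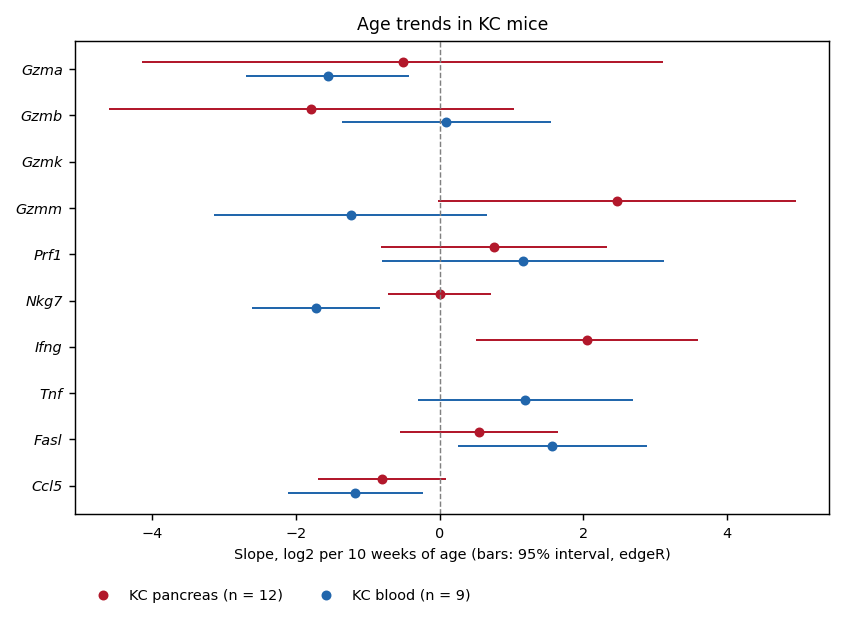
Slope of each gene over age in KC pancreas and KC blood, in log2 per 10 weeks, with its 95% interval from edgeR. Gzmk was tested in neither tissue, Ifng not in blood and Tnf not in pancreas. In blood the intervals of Nkg7, Gzma and Ccl5 lie below 0 and that of Fasl above 0. In pancreas that of Ifng lies above 0 and the others, Nkg7 among them, span 0. The intervals are unadjusted.

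KC pancreas was set against WT pancreas over 9 and 30 weeks, with 4 KC and 2 WT libraries at those ages. Each WT library was alone at its age, so WT pancreas was assumed to vary like KC pancreas. The SE and p-values thus rest on the spread within ages of the 12 KC libraries. All 4 KC libraries are in set 2 and both WT libraries in set 1, so genotype and set cannot be told apart here. 0 of the 10 genes were called by edgeR, against 28 of 12374 genes (percent called 0.226), and 0 had an unadjusted p under 0.05, against 5.79% of all genes. DESeq2 also called 0 of them and 1.28% of all genes, and edgeR without a filter 0 and 0.185%. For Gzma, Gzmk, Prf1 and Tnf DESeq2 gave no adjusted p, so they could not be called by it. Nkg7 averaged 178 CPM in the 4 KC libraries and 245 CPM in the WT libraries, and Prf1 23.4 and 25.8 CPM. Gzmb averaged 6.14 CPM in KC pancreas and 1.78 CPM in WT pancreas, with a log2 fold change of 1.66 ± 1.70 (adjusted p = 0.972). The WT libraries differed from each other in Fasl, with 25.3 CPM at 9 weeks and 0.479 CPM at 30 weeks, and in Gzmm, with 0.0950 and 19.8 CPM. The intervals of the 9 genes other than Gzmk, whose counts were too few for an estimate, spanned 0. All 6 acinar cell markers were called lower in KC pancreas in the same comparison. Their summed level was 694 and 2732 CPM in WT pancreas. Over the 12 KC pancreas libraries of all ages it was 0.103 to 6306 CPM, highest in Sample_42P8 of 4 weeks, an age outside the contrast. The part of these markers in the values of the members was not tested.

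In blood at 30 weeks the comparison rests on 2 KC libraries and 1 WT library, assumed to vary like the KC ones. Both KC libraries are in set 2 and the WT library in set 1, so genotype and set cannot be told apart; Rn45s took 1.94% and 3.95% of reads in genes in KC blood and 16.7% in WT blood. edgeR called 0 of 9 genes and 0 of 12496 genes (percent called 0.0), DESeq2 called 0 of 9 and 0.088% of all genes, and 1 of 9, Gzmb, had an unadjusted p under 0.05, against 2.83% of all genes. Gzmb held 30.7 and 81.5 CPM in KC blood and 1.38 CPM in WT blood, with a log2 fold change of 5.29 ± 2.50 (adjusted p = 1). Fasl held 29.0 and 42.7 CPM in KC blood and 1.14 CPM in WT blood, and Ccl5 89.2 and 230.0 CPM in KC blood and 32.8 CPM in WT blood. Nkg7 stood the other way round, with 36.3 and 65.0 CPM in KC blood and 226 CPM in WT blood. Ifng had 0 counts in the WT library, a limit of 0.179 CPM at 3 counts.

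The WT libraries of 30 weeks, 1 a tissue, are set side by side and were not tested. Nkg7 held 280.1 CPM in WT pancreas and 226 CPM in WT blood, and Prf1 38.0 and 33.8 CPM. Gzma was at 18.2 CPM in WT pancreas and 2.81 CPM in WT blood, Gzmm at 19.8 and 3.47 CPM, Ccl5 at 71.8 and 32.8 CPM, and Gzmb at 0.718 and 1.38 CPM. Ifng had 65 counts (5.19 CPM) in WT pancreas and 0 in WT blood.

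Rank correlations between the members over the 24 libraries were mostly weak. Of 45 pairs, the median Spearman rho of CPM was -0.03, 24 were negative and 3 lay above 0.5: Prf1 with Ifng (0.58), Gzma with Gzmb (0.56) and Gzmb with Ccl5 (0.56). All members share the depth and set of each library, so these values describe and are not tested. The coefficient of variation over the libraries was 96.0% for Nkg7, 109% for Prf1, 154% for Fasl, 162% for Ccl5, 209% for Gzmb, 224% for Gzma, 235% for Tnf, 279% for Gzmm, 403% for Ifng and 465% for Gzmk. Genes with a mean of at least 100 CPM, the class of Nkg7 and Ccl5, had a median of 64.5%, those of 10 to 100 CPM 127% and those of 1 to 10 CPM 211%. Among 7105 genes of at least 10 CPM, the closest to a member over the libraries were Vps26a for Gzma (rho 0.79), Ccar1 for Gzmb (0.85), Neu1 for Prf1 (0.82), Bloc1s1 for Nkg7 (0.74) and Nfatc3 for Ccl5 (0.73). Each rho is the highest over these genes, and how high it would stand by chance was not tested.

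None of the other genes of these pathways, in 7 lists by role, was called by edgeR in any of the 6 comparisons. Of all genes, edgeR called 0.0% to 0.293% in these comparisons. Single genes given below with a fold change do not stand for their list. Of the 6 other granzymes, Gzmd, Gzmf, Gzmg and Gzmn had 0 counts in all libraries, Gzme had 4 counts in 1 library, and Gzmc 187 counts in 5, with 17.9 CPM in Sample_42P8 of KC pancreas and 0 counts in all KC blood libraries. In granule formation and release, 16 of 17 genes were tested between the tissues and 10 were positive, with a median log2 fold change of 0.10 against -0.12 over all genes. Of all genes tested between the tissues, 45.4% were positive. Srgn, the proteoglycan that packs granule proteins, had a median of 374 CPM in KC pancreas and 239.9 CPM in KC blood, with a log2 fold change of 0.89 ± 0.44 (adjusted p = 0.504). Granzyme inhibitors had 4 of 5 genes tested and a median of 0.38. Serpinb9, the inhibitor of granzyme B, had a median of 63.6 CPM in KC pancreas and 44.5 CPM in KC blood, and its log2 fold change was 1.33 ± 0.64 (adjusted p = 0.485). Of 13 other cytokines, chemokines and death ligands, 8 were tested and 4 were positive, with a median of 0.14. Ltb, which encodes a subunit of lymphotoxin, had a median of 3.35 CPM in KC pancreas and 15.4 CPM in KC blood, with a log2 fold change of -1.95 ± 1.103 (adjusted p = 0.585). The receptors of the ligands and the interferon gamma pathway had medians of 0.15 and -0.04, with 7 of 8 and 11 of 13 genes tested. Ifngr1 ran from 13.1 to 588 CPM in KC pancreas and from 5.29 to 379 CPM in KC blood, with a log2 fold change of -0.32 ± 0.56 (adjusted p = 0.908). Of 10 transcription factors of effector cells, 6 were positive, with a median of 0.20. Eomes, a T-box factor of cytotoxic cells, had a median of 68.9 CPM in KC pancreas and 22.6 CPM in KC blood, with a log2 fold change of 2.15 ± 0.86 (adjusted p = 0.351).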

How the data were processed

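RNA-seq was run on 24 libraries of sorted CD8 T cells. The deposited files hold raw read counts per gene, made by the authors with TopHat, SAMtools and HTSeq on mm10, per the submitters' processing notes, which also name DESeq; versions, strand setting and annotation are not given in the sources used here. The last 5 rows of each file, tallies of reads given to no gene, were left out; 11.7% to 32.5% of tallied reads were in genes. Between 6352070 and 16716169 reads in genes per library set the precision, and limits at 3 counts cover counting error only.

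CPM were computed from reads in genes. edgeR 4.0.16 (quasi-likelihood, robust, TMM, filterByExpr with a minimum count of 10) in R 4.3.3 tested all genes, with Benjamini-Hochberg adjustment over them at 0.05 and intervals of 95%. The tissue contrast used 21 KC libraries, each age having its own level; age slopes were fitted within each tissue and their difference over the 21; KC was set against WT in 14 pancreas and 10 blood libraries, with a mean for each genotype and age. DESeq2 1.42.0, RLE scaling, no filter, other age terms, the library sets and leaving out each library were alternatives. The scripts were tested on simulated data. Libraries of pancreas and blood that share a title number are not stated to come from 1 mouse, and none was paired. Over 7 checked numbers the correlation of deviations was -0.0543 to 0.0153. Numbers 302 and 303 had the same value (0.0153), as did 42 and 43 (-0.0184), so the 7 are not separate results. The check cannot decide whether such libraries come from 1 mouse. Figures were drawn with matplotlib 3.10.9.

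All 10 genes are named. Of the other pathway genes, those called, or at most the 3 of highest mean CPM per list, could be named. Eomes, Serpinb9, Srgn, Ltb and Ifngr1 fall under this rule. Runx3, Ctsd and Tnfsf10 had higher means than Eomes, Srgn and Ltb in the same lists and are not shown. The genes closest to a member are the first by Spearman rho. The members and lists were chosen with earlier results of these data known. The sequences lie upstream of RefSeq starts (GRCm38.p6), and 9 of the 10 genes had one.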

Additional observations from a re-analysis of the deposited data

Results flagged for a closer look

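In KC blood, 5 genes had 1 library far above the other 8 by Dixon's criterion (critical value 0.493). Gzma and Nkg7 were highest in Sample_42B8 of 4 weeks, at 377 and 1094 CPM. Gzmb was highest in Sample_205B8 of 20 weeks, at 602 CPM. Tnf was highest in Sample_302B8 of 30 weeks, at 19.5 CPM. Ccl5 was highest in Sample_43B8 of 4 weeks, at 1684 CPM. Of 11058 genes tested between the tissues, 37.6% also had a library past this criterion in KC blood, against 5 of the 10 members; chance marks about 5% of groups of values without skew. KC pancreas, with 12 libraries, and the WT groups were outside the group sizes the criterion was run on.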

How the results depend on the processing

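Of the log2 fold changes of members under alternatives, 939 kept direction with no change in being called, 71 reversed and 5 passed the threshold. Values for which DESeq2 gave no adjusted p were counted as not called. The causes were not tested. DESeq2 called 1 member for tissue (Ifng), 1 for age in KC pancreas (Gzmm), 1 for age in KC blood (Nkg7) and 1 for the difference of slopes (Gzmm); without a filter edgeR called 1 for age in KC blood (Nkg7). Genes called for tissue (10) were 34 without a filter, 479 with DESeq2, 65 without an age term, 6 in set 1 alone and 2 in set 2 alone. For age in KC pancreas (28) they were 686, 422 with DESeq2, 0 with the set as a term and 15 with age rank; in KC blood (0) 102 and 315; for the difference (6) 238 with DESeq2, 0 with RLE scaling and 1 with the set. KC against WT pancreas (28) gave 158 with DESeq2, 8 at 30 weeks alone and 15 at 9 weeks alone, and KC against WT blood (0) gave 11 with DESeq2. RLE scaling moved the median of all genes for age in KC blood to -0.24, against -0.12.

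For tissue, Nkg7 (-0.08) was 0.050 with RLE scaling, 0.051 with DESeq2 and 1.12 in set 2 alone; Tnf (0.39) was -0.45 with the set beside age and -1.16 in set 2 alone; Fasl (0.11) was -0.29 without an age term, -0.077 with the set beside age and -1.04 in set 2 alone. With the title number as a replicate block, in libraries with both tissues, 14 genes and 0 members were called (8 genes without the block), and 2 of 7 checked numbers correlated best with their own. Nkg7 was then 0.23 (0.10 without the block), Tnf -0.31 and Fasl -0.13 (-0.10 without the block). For age in KC pancreas, Gzma (-0.51) was 0.11 with the set and 0.31 with age rank, Gzmb was 0.19 with the set, and Nkg7 was 0.0025 with RLE scaling, 0.0065 without a filter, 0.0026 with DESeq2, 0.34 with the set and 0.021 with age rank. In KC blood Gzmb (0.10) was -0.056 with RLE scaling and -0.056 with DESeq2. The difference of slopes of Tnf was 0.29 with the set. KC over WT pancreas at 9 weeks alone gave 1.89 for Gzma, -0.10 for Ifng, -0.88 for Tnf and -4.46 for Fasl, and at 30 weeks alone -1.29 for Gzmm.

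Leaving out 1 library called 0 members. Genes called ran from 6 to 21 for tissue, 10 to 31 for age in KC pancreas, 0 to 12 in KC blood, 0 to 13 for the difference, 4 to 29 for KC against WT pancreas and 0 to 2 in blood. For tissue Prf1 ran from -0.054 to 1.65, Nkg7 from -0.32 to 0.56, Tnf from -0.58 to 1.16, Fasl from -0.16 to 0.55, Gzma from -3.44 to -1.02, Gzmb from -3.25 to -0.95, Gzmm from 0.31 to 2.75, Ifng from 2.29 to 4.33 and Ccl5 from -1.10 to -0.53. For age in KC pancreas Gzma ran from -2.06 to 0.67, Nkg7 from -0.16 to 0.11, Ifng from -1.55 to 2.56 and Gzmm from 1.09 to 3.70, and in KC blood Gzmb from -0.53 to 0.67. For the difference Gzma ran from -0.43 to 2.32, Ifng from -2.13 to 2.03, Tnf from -1.23 to 0.74 and Ccl5 from -0.23 to 0.71. For KC over WT pancreas Gzma ran from -4.96 to 1.89, Gzmm from -1.57 to 2.96, Prf1 from -1.84 to 0.18, Ifng from -2.60 to 3.89, Tnf from -1.004 to 3.94, Fasl from -4.46 to 5.45 and Ccl5 from -1.11 to 0.076. Blood without its WT library could not be fitted.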
